A study of Mus musculus with 20 samples.

Results

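MHC class I presentation shows fragments of a cell's own proteins to CD8+ T cells. The proteasome, in its immune form with the subunits encoded by Psmb8, Psmb9 and Psmb10, cuts proteins into peptides, the TAP transporter moves the peptides into the endoplasmic reticulum, and tapasin helps to load them onto a heavy chain paired with β2-microglobulin. NLRC5 is the coactivator that drives many of these genes together, and type I and type II interferons raise them in most cells, macrophages included. The 10 genes described here are the heavy chains H2-K1 and H2-D1, B2m, Tap1, Tap2, Tapbp (tapasin), Psmb8, Psmb9, Psmb10 and Nlrc5. They were chosen by name, and all 10 are among the 16790 genes listed in either of the expression tables.

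The expression data are single-cell RNA-seq of macrophages cultured from bone marrow (BM) and of cells sorted from 4T1.2 mouse breast tumors. B-MF are macrophages made from BM B cells, and Mo-MF are macrophages made from BM monocytes, both after 7 days in medium conditioned by 4T1.2 cancer cells (2 libraries each). The 4 tumor libraries hold cells labelled as macrophages from mice carrying 4T1.2 cancer, numbered Tumor 2 to Tumor 5 as in the deposited table. ATAC-seq peak lists cover CSF1R+ and CSF1R- B-cell precursors from BM and spleen of naïve mice (3 libraries per group), which the labels call macrophages and the study describes as B-cell precursors. B-MF, Mo-MF and tumor cells therefore all met 4T1.2 products and none of the groups is an untreated macrophage. The methods give C57BL/CJ or BALB/CJ mice as the source of BM B cells for such cultures, without saying which strain these libraries came from. The tumors were grown in BALB/c mice, which carry the d haplotype of the MHC, whereas the reference genome is that of C57BL/6, so the assignment of reads to H2-K1 and H2-D1 in these cells was not tested. In that reference, 0.0% of the 90-base windows from the last 500 bases of each of the 10 transcripts occurred in a transcript of another gene.

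The cultures held 5237 and 5326 B-MF and 4846 and 5389 Mo-MF, with median corrected counts of 18350 to 19469 per cell. The tumor libraries held 3180, 2318, 2387 and 3000 cells at 7651 to 8266 corrected counts. At most 14 cell barcodes were shared by any pair of libraries. In mean corrected counts per cell, the macrophage markers summed to 300 and 289 in B-MF against 609 and 600 in Mo-MF. Apoe alone averaged 323 over the culture libraries, so these sums mostly follow that gene. The 9 neutrophil markers summed to 4.83 and 4.56 in B-MF, where 3 of them were at 0, and to 165 and 132 in Mo-MF, where none was. In the tumor the neutrophil markers summed to 443 to 785 and the macrophage markers to 18.3 to 41.0, so the cells labelled as macrophages include many that carry a neutrophil profile, and tumor values are given by cell class below.

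The sequences just upstream of 4 of these genes are printed because they show what the heavy chain and B2m genes share and where Tap1 differs. Each run is the 200 bases before the RefSeq start on GRCm38.p6, 5′ to 3′ on the gene's strand. Capitals mark matches, on either strand, to CCAAT (bound by NF-Y), TGACG (the core of the X2 box of MHC promoters), the core of an interferon-stimulated response element (GAAA and GAAA with 2 free bases between), GGGNNTTCC (a kappa B core) and GAANNGAAA, a shorter interferon form added after the sequences were seen.
H2-K1, chr17:34000334-34000533, minus strand: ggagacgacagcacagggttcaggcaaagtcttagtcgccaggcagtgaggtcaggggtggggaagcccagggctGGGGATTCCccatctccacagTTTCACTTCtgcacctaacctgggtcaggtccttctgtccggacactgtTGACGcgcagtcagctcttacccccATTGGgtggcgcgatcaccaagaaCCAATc
H2-D1, chr17:35262894-35263093, plus strand: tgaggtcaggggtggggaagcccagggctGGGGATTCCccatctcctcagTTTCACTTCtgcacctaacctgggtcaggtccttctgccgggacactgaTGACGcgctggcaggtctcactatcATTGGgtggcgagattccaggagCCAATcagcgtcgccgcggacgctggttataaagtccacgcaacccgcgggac
B2m, chr2:122147487-122147686, plus strand: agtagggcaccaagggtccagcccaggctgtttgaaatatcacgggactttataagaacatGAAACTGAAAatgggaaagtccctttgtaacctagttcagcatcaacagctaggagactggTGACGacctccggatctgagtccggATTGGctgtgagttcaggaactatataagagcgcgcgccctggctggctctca
Tap1, chr17:34187356-34187555, plus strand: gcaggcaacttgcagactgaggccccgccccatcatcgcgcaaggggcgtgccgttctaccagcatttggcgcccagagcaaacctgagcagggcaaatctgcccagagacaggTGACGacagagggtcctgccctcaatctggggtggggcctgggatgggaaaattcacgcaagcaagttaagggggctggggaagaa

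H2-K1 and H2-D1 share a run of 46 identical bases in these windows, with the kappa B core, the interferon form, TGACG and CCAAT in the same order. B2m holds TGACG followed by CCAAT as well. In windows from 250 bases before to 50 after the start, CCAAT stood in 6 of the 8 members with a window in the RefSeq table (B2m, H2-D1, H2-K1, Psmb9, Tap1 and Tapbp), against 37.41% of all 32851 promoters. TGACG stood in 5 (B2m, H2-D1, H2-K1, Psmb9 and Tap1) against 20.81%. The Tap1 and Psmb9 windows overlap on opposite strands, and for CCAAT and TGACG alike their matches are the same bases, counted for each gene. The full interferon core was found only in B2m (3.44% of all promoters), TTCNNNGAA, the interferon-gamma activated site, only in Psmb8 (8.3%), GGGNNTTCC in H2-D1 and H2-K1 (5.82%), and GAANNGAAA in the same pair (7.52%). Tap2 and Nlrc5 had no entry. A match to such short letters is a description of the window and not a binding site.

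The culture libraries bear on whether macrophages of B-cell origin carry the same class I machinery as those from monocytes. All 10 genes were present in both, and 9 of the 10 fell in B-MF relative to Mo-MF, from heavy chains to transporter, tapasin, proteasome subunits and Nlrc5. Psmb10, the subunit known as MECL-1, was the exception and was higher in B-MF. The difference was largest for H2-D1, at 0.72 on the log2 scale, and 0.46 or less for the other genes. The members' summed counts made up 0.878% and 0.882% of all corrected counts in the B-MF cultures, against 1.27% and 1.21% in Mo-MF. Most of these counts were those of H2-D1, B2m and H2-K1.

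All levels that follow are mean corrected counts per cell, one for each library. H2-K1, a classical heavy chain, stood at 31.1 and 32.2 in B-MF against 38.5 and 39.1 in Mo-MF. H2-D1, the other classical heavy chain of the reference genome, stood at 84.3 and 80.3 in B-MF against 140.9 and 131.2. B2m, the light chain that every class I molecule needs to reach the surface, gave 37.5 and 37.9 against 44.8 and 42.9. For all 3 surface components the B-MF libraries lay below both Mo-MF libraries, as did 29.6% of all genes tested. The gap was widest for H2-D1. The fitted differences (B-MF minus Mo-MF, log2 of the mean plus 0.1) were -0.29 ± 0.051 (SE) for H2-K1, -0.72 ± 0.058 for H2-D1 and -0.22 ± 0.051 for B2m. Their adjusted p-values by limma with Benjamini-Hochberg adjustment were 0.00253, 3.41e-05 and 0.0114.

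Tap1 and Tap2, the pair of chains that form the peptide transporter, were both lower in B-MF. Tap1 stood at 0.620 and 0.586 in B-MF against 0.868 and 0.863 in Mo-MF. Tap2 stood at 0.587 and 0.530 against 0.759 and 0.703. Tapbp, whose product tethers empty heavy chains to the transporter, gave 3.4 and 3.45 against 3.98 and 3.86. None of the 3 genes overlapped between the cell types, and B-MF lay below without overlap in 29.6% of all genes tested. The differences were -0.46 ± 0.052 for Tap1 (limma adjusted p = 0.000255), -0.34 ± 0.063 for Tap2 (0.00373) and -0.19 ± 0.050 for Tapbp (0.0188).

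The immunoproteasome subunits did not move as a block. Psmb8, encoding LMP7, stood at 5.02 and 5.01 in B-MF against 6.12 and 5.99 in Mo-MF, and Psmb9, encoding LMP2, at 2.23 and 2.13 against 2.50 and 2.45. Psmb10 stood at 2.73 and 2.70 in B-MF against 2.40 and 2.43 in Mo-MF, so that its B-MF libraries were the high ones. The differences were -0.27 ± 0.049 for Psmb8 (limma adjusted p = 0.00352), -0.17 ± 0.052 for Psmb9 (0.0296) and 0.16 ± 0.049 for Psmb10 (0.0320). Nlrc5, the coactivator, was the scarcest, with 0.113 and 0.0886 in B-MF against 0.138 and 0.130 in Mo-MF, a difference of -0.22 ± 0.067 (0.0294).

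**Figure D1:**
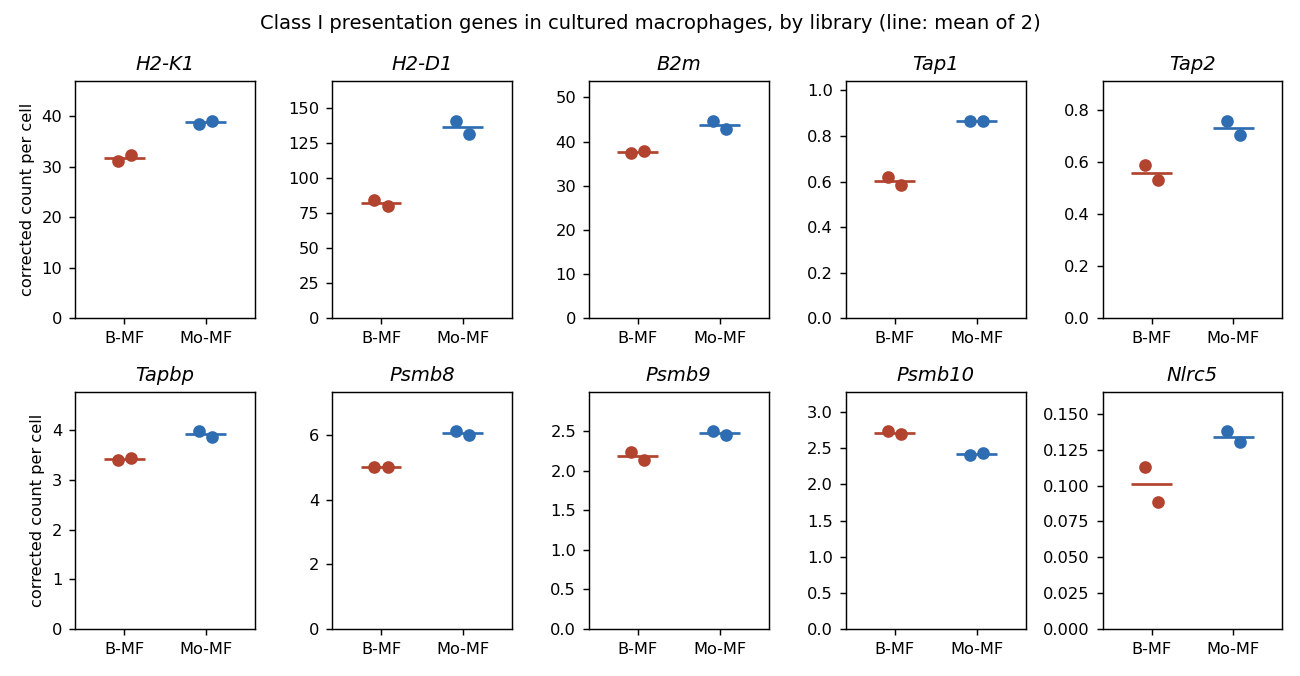
Mean corrected count per cell of each of the 10 class I genes (vertical axis from 0) in the 2 B-MF and the 2 Mo-MF libraries, with a point per library and a line at the mean. In 9 panels both B-MF points lie under both Mo-MF points, as in 29.6% of all genes tested. For Psmb10 the B-MF points lie above (2.73 and 2.70 against 2.40 and 2.43), as in 40.0%.

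Over all 8633 genes tested, 16.9% were called lower in B-MF and 22.6% higher, and the median difference was 0.02, against a median of -0.25 over the 10 members. Libraries that did not overlap were common in this comparison, with B-MF below in 29.6% of genes and above in 40.0%. With 2 libraries a side, and no statement in the labels that they came from separate cultures, the p-values measure the spread between these libraries only. The calls of H2-K1, H2-D1, Tap1 and Tap2 held in every alternative in which they could be tested. Leaving out a Mo-MF library leaves 1 on that side, which is then assumed to vary like the B-MF libraries. Without Mo-MF 1 the calls of 6 genes were lost, with the difference of B2m at -0.19 (limma adjusted p = 0.196), Tapbp at -0.17 (0.261), Psmb8 at -0.25 (0.0558), Psmb9 at -0.16 (0.290), Psmb10 at 0.15 (0.310) and Nlrc5 at -0.20 (0.157). Without Mo-MF 2 the calls of B2m at -0.25 (0.0591), Tapbp at -0.21 (0.124), Psmb9 at -0.19 (0.185), Psmb10 at 0.17 (0.249) and Nlrc5 at -0.25 (0.0595) were lost. No gene changed direction.

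The Mo-MF libraries also held 503 and 517 neutrophil-like cells, a class that had fewer than 10 cells in each B-MF library, and 62 and 64 monocyte-like cells. The summed members stood at 166 and 172 corrected counts in the neutrophil-like cells and at 256 and 241 in the macrophage-like cells of Mo-MF, against 173 and 169 in those of B-MF. Within macrophage-like cells alone, an alternative chosen after seeing the data, H2-D1 gave 87.6 and 82.8 in B-MF against 151.6 and 139.5. In these cells 8 members were called lower and 1 higher, and Psmb9 was at -0.14 with a limma adjusted p of 0.0633. Over all genes the calls then split into 1587 higher and 1784 lower, against 1955 and 1458 with all cells. With clusters resembling neutrophils, lymphocytes or dendritic cells left out, Psmb10 was at 0.12 (0.0817). Different clusters held most macrophage-like cells of B-MF and Mo-MF, and the part of this in the differences was not tested.

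The other genes of the class I pathway, 44 of a list of 52 with enough counts to test, are given by role. Of these 12 (27.3%) were lower and 9 (20.5%) higher in B-MF, against 16.9% and 22.6% of all genes, with a median difference of -0.05. Nonclassical heavy chains resembled H2-K1 and H2-D1 in direction. Of 10 other heavy chains and related molecules, 7 fell, among them H2-Q7 (-1.02, limma adjusted p = 1.04e-05), H2-T24 (-0.90), H2-Q6 (-0.81) and H2-T23 (-0.75), the last being Qa-1, the ligand of NKG2A on NK cells. H2-T23 stood at 3.80 and 3.66 in B-MF against 6.60 and 6.07. Fcgrt rose in B-MF, with 7.16 and 6.71 against 2.78 and 2.78 (1.29, limma adjusted p = 8.36e-07). It encodes the neonatal Fc receptor, which pairs with B2m but binds antibody and albumin rather than peptide, and it is the member of the list with the largest difference.

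Chaperones of the endoplasmic reticulum went the other way from tapasin. Of 7 tested, 5 rose in B-MF, namely Calr (0.41), Canx (0.22), Pdia3 (0.34), Pdia6 (0.34) and Hspa5 (0.35), while Erap1, which trims peptides, was at -0.09 and Tapbpl, the tapasin-related TAPBPR, at -0.14, neither called. These chaperones fold glycoproteins of every kind and not only class I. Of 12 genes of the proteasome and the cytosolic peptidases, Pomp (0.17), Blmh (0.24) and Tpp2 (0.20) rose and Psme3 (-0.19) and Npepps (-0.46) fell, shares of 25.0% and 16.7% that are near those over all genes. Psme1 and Psme2, the interferon-inducible proteasome activator, were at -0.13 and 0.05 and were not called.

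Of 14 transcription factors and genes of interferon-gamma signalling tested, none rose and 11 were not called. The share that fell was 21.4%, near the 16.9% of all genes. Irf8 fell by 0.21 and Nfyc by 0.24, while Irf1, the factor most tied to class I induction, was at -0.14 and not called. Interferon-response genes outside the class I pathway were mostly lower in B-MF. Of 29 tested, 25 (86.2%) fell, against 16.9% of all genes. Gbp7 rose (0.48), Bst2, Parp14 and Gbp3 were not called, and the median of the 29 was -0.67. Irf7 stood at 1.79 and 1.83 against 5.33 and 5.05 (-1.47, limma adjusted p = 4.02e-07), and Oasl1 and Rsad2 fell by 1.29 and 1.16.

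Most class II genes ran opposite to class I. H2-Aa (0.43), H2-Ab1 (0.34), H2-Eb1 (1.03) and Cd74 (0.86), the chains and the invariant chain of the molecule that presents to CD4+ T cells, rose in B-MF, and H2-DMa (-0.27), which helps to load it, fell. The limma adjusted p-values were 0.00354, 0.0121, 5.02e-06, 0.000328 and 0.00422. Of the 5 class II genes tested on means, only 1 was called higher when log values were averaged over cells instead, so the rise of the class II genes depends on how cells were averaged.

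**Figure D2:**
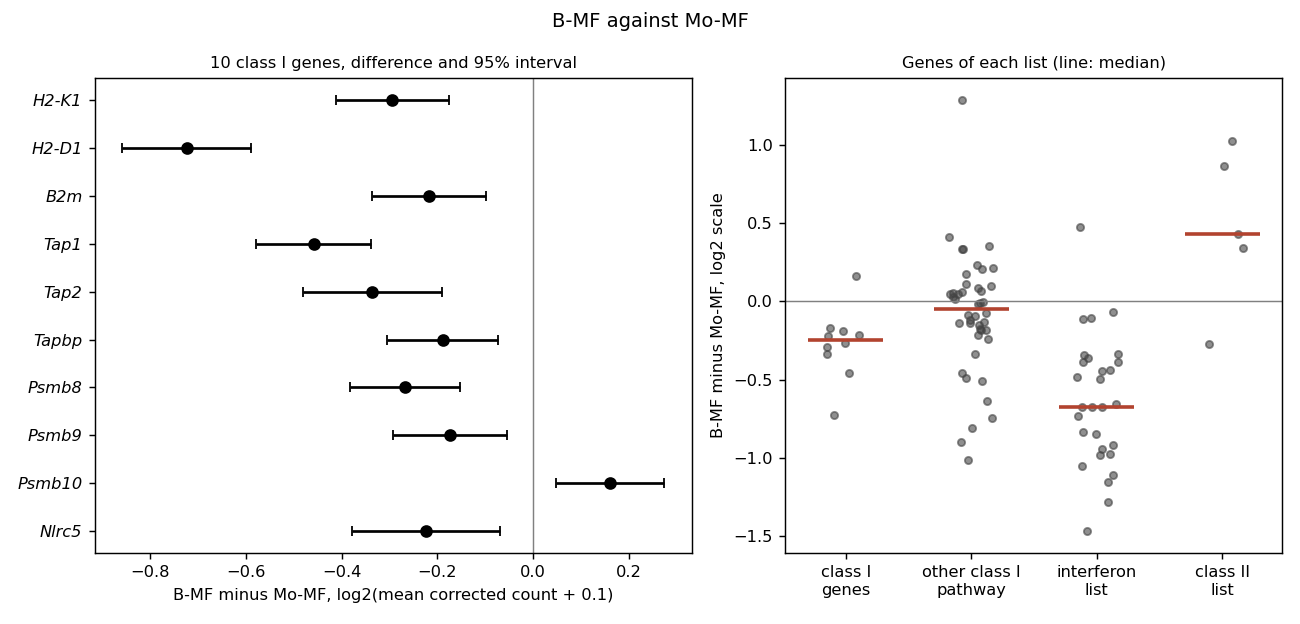
Left, difference of each class I gene between B-MF and Mo-MF (log2 of the mean corrected count plus 0.1) with its 95% interval. Right, a point for each tested gene of the 10 class I genes, the rest of the class I pathway, the interferon list and the class II list, with a line at the median (-0.25, -0.05, -0.67 and 0.43).

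In the tumor the question is which cells carry the class I machinery. Clustering without the class I, pathway and interferon genes gave a neutrophil-like class (1169, 1463, 1150 and 1692 cells in Tumor 2 to Tumor 5), a monocyte- or macrophage-like class (1925, 762, 1081 and 1131 cells) and a small dendritic-like class (28, 24, 22 and 29 cells). Counts of all 10 genes were found in all 3 classes, although free RNA also gives counts in droplet data. Macrophage markers of the fixed list gauge that share: in neutrophil-like cells the 3 C1q genes stood at 19.6% to 44.5% and the other 7 markers at 3.06% to 53.8% of their level in monocyte- or macrophage-like cells, Cd68 being the highest. The class I genes other than Psmb8 and Psmb10 stood at 69.4% or more. Among the 3 classes, by the sum of the members, dendritic-like cells were highest and neutrophil-like cells lowest in every library. Neutrophil-like cells were lowest in 4 of 4 libraries for 6 single genes, and H2-D1 was instead higher in them than in the monocyte- or macrophage-like class. The summed members were 107 to 116 corrected counts per cell in dendritic-like cells, 47.1 to 55.3 in monocyte- or macrophage-like cells and 39.0 to 46.9 in neutrophil-like cells. Between the last 2 classes the sum differed by 1.13 to 1.21 times and the median corrected count per cell by 1.135 to 1.141 times. These class levels are a description, since classes were drawn from the same cells, and no test was made.

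Among the members the gap between the big classes was largest for Psmb10 and Psmb8. Psmb10 stood at 1.65, 1.16, 1.61 and 1.49 in the monocyte- or macrophage-like cells of Tumor 2 to Tumor 5 and at 0.430, 0.318, 0.482 and 0.433 in the neutrophil-like cells, 3.35 to 3.84 times higher in each library. Psmb8 stood at 4.39, 3.23, 4.17 and 4.06 against 1.94, 1.54, 2.17 and 2.05, or 1.92 to 2.26 times higher. The classes did not overlap for either gene, and among the 5905 genes that reached 0.1 counts per cell in the tumor 67.1% lay above the neutrophil-like class in this way and 16.7% below it. Over these genes the median ratio was 1.66 to 1.82 in each library. The Psmb10 level of neutrophil-like cells, 26.0% to 29.9% of that in the other class, was within the range of the C1q genes. The part of free RNA in this level was not tested. The Psmb8 level, 44.2% to 52.2%, reached that range at its lower end and lay near that of Cd68, and the part of free RNA in it was not tested. Psmb9, the remaining inducible subunit, hardly differed, with ratios of 1.0 to 1.11.

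The transcripts of the heavy chains parted ways. H2-K1 was 1.26 to 1.40 times higher in the monocyte- or macrophage-like class (8.37, 6.70, 8.37 and 7.64 against 6.0, 5.32, 6.40 and 5.84), and B2m 1.27 to 1.44 times higher. Both lay under the median ratio over the 5905 genes, 1.66 to 1.82. H2-D1 was lower in the monocyte- or macrophage-like class in 4 of 4 libraries, with 14.7, 16.2, 17.3 and 15.9 against 17.0, 17.3, 19.2 and 18.5. That put neutrophil-like cells 1.07 to 1.17 times above the other class within each library, although the ranges over libraries overlapped. Tapbp was 1.11 to 1.26 times and Tap2 1.0 to 1.23 times higher in the monocyte- or macrophage-like class in 4 of 4 libraries, Tap1 in 3 of 4 and Nlrc5 in 1 of 4. Among the 5905 genes 70.6% were higher in that class in 4 of 4 libraries. Median corrected counts per cell were 8497 to 8537 in that class and 7482 to 7518 in the neutrophil-like class, and the class II genes summed to 62.0 to 86.1 against 4.68 to 6.14.

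Dendritic-like cells exceeded both big classes in every library for 9 of the genes, with H2-K1 at 22.3 to 25.2, H2-D1 at 29.1 to 37.3, B2m at 28.1 to 33.5 and Psmb8 at 9.82 to 11.8. Among the 5905 genes 18.6% were higher in this way. Psmb10 was the exception, at 1.23 to 2.04 against 1.16 to 1.65 in the monocyte- or macrophage-like class. Each dendritic-like value rests on fewer than 30 cells of a library.

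**Figure D3:**
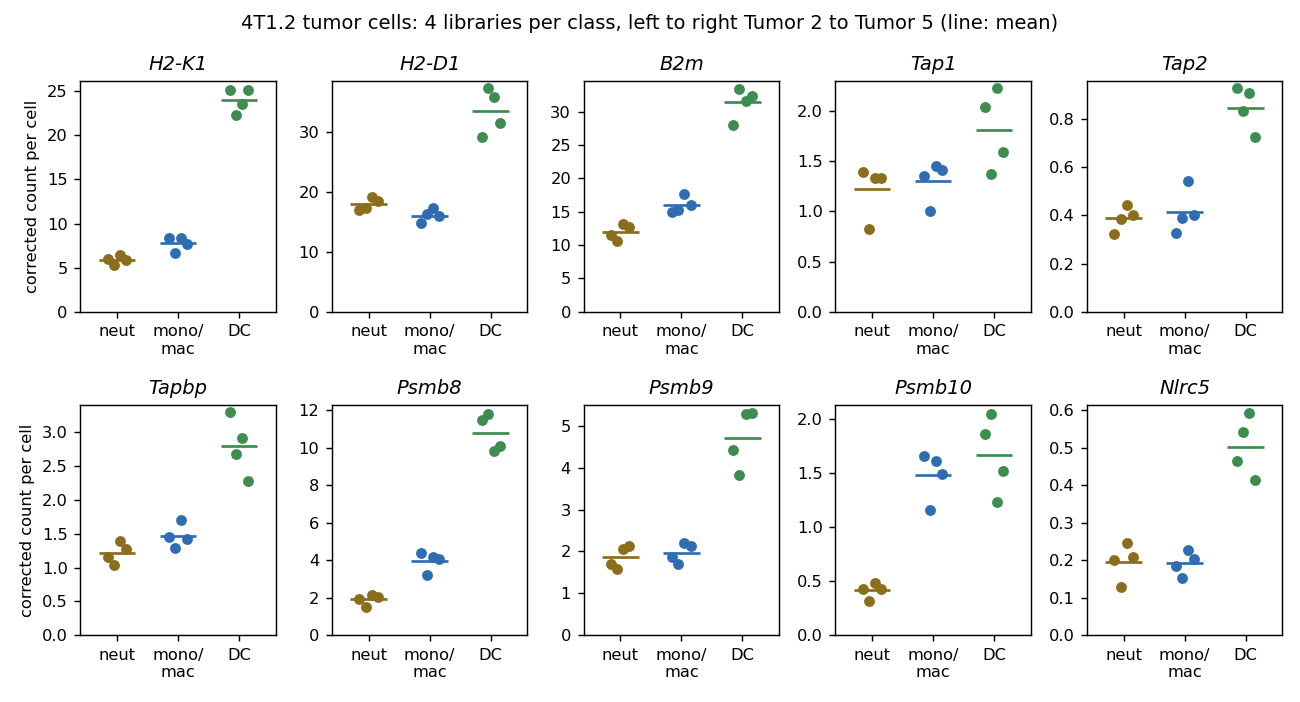
Mean corrected count per cell (vertical axis from 0) of each class I gene in neutrophil-like (neut), monocyte- or macrophage-like (mono/mac) and dendritic-like (DC) cells of the 4 tumor libraries, left to right Tumor 2 to Tumor 5, with a line at the mean. Dendritic-like cells are highest for most genes, H2-D1 is a little higher in neutrophil-like cells, and Psmb10 sets both antigen-presenting classes apart from neutrophil-like cells (0.318 to 0.482).

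Within classes the genes varied by cluster as well. Cluster 2, of 1609 neutrophil-like cells led by interferon-response genes such as Isg15 and Ifit1, had all 10 members higher than the other neutrophil-like cells in 4 of 4 libraries, against 16.0% of the 5905 genes. Tap1 stood at 2.18, 1.69, 2.17 and 2.22 there and at 0.961, 0.627, 0.919 and 0.919 in the others, 2.26 to 2.70 times higher, and Nlrc5 was 1.93 to 2.44 times higher. The summed interferon list was 2.64 to 3.26 times higher in these cells. H2-K1, H2-D1 and B2m were raised less, by 1.27 to 1.6, 1.28 to 1.46 and 1.45 to 1.62 times. Cluster 2 was the highest of 10 clusters for Tap1 in 3 of 4 libraries. Psmb10 is among the 10 members counted as higher, at 0.530, 0.634, 0.744 and 0.672 against 0.375, 0.245, 0.351 and 0.322. The part of free RNA in its level in neutrophil-like cells was not tested.

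Cluster 6, of 763 macrophage-like cells, had 4.05 to 5.08 times the class II sum of the other monocyte- or macrophage-like cells. Class II genes were not left out of the clustering, so this excess is not independent of how the cluster was drawn. All 10 class I members were higher in cluster 6 in 4 of 4 libraries, against 29.3% of the 5905 genes. Psmb8 stood at 7.21, 6.35, 7.52 and 7.37 against 3.76, 2.95, 3.49 and 3.50. Psmb9 and Psmb10 were 1.65 to 2.04 and 1.83 to 2.18 times higher, and these ranges overlapped those of Tap2 (1.53 to 2.24) and Tapbp (1.59 to 1.93). Tap1 (1.44 to 1.69) and H2-K1 (1.42 to 1.61) followed, and H2-D1 (1.25 to 1.31), Nlrc5 (1.11 to 1.36) and B2m (1.11 to 1.18) were raised least. The interferon list was 1.81 to 2.21 times higher there too. At the other end, neutrophil-like cluster 8 was lowest for all 10 genes by the mean over libraries, with a sum of 18.7 to 19.4 corrected counts. It was also lowest for 41.6% of the 5905 genes and for the summed interferon, class II and pathway lists.

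The cultures and the tumor stand in tables corrected separately, so their levels are set side by side and not tested. The heavy chains stood at 31.1 to 140.9 corrected counts per cell in the cultures and 6.05 to 18.5 in the tumor libraries, and the members took 0.541% to 0.652% of corrected counts in the tumor. Tap1 and Nlrc5 were at 0.884 to 1.38 and 0.139 to 0.242 in the tumor against 0.586 to 0.868 and 0.0886 to 0.138 in the cultures.

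Whether the genes rise together in single cells was examined by Spearman correlation over the cells of each library, with the cells of a library sharing its depth and correction. In the cultures the pairs with the highest correlations were those among H2-K1, H2-D1 and B2m. The median over the 45 pairs of members was 0.078 and 0.0591 over the 5237 and 5326 B-MF cells and 0.102 and 0.078 over the 4846 and 5389 Mo-MF cells. In the tumor it was 0.214, 0.216, 0.224 and 0.220 over 2318 to 3180 cells, and no pair was negative in any library. In the cultures 1, 8, 1 and 3 pairs were negative. By the mean over libraries 9 of 45 pairs exceeded 0.2 in the cultures, the 3 surface pairs and 6 others at 0.20 to 0.25, against 26 in the tumor.

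H2-K1 and H2-D1 had the strongest link in the cultures, at 0.82 (0.78 to 0.84 over 4 libraries), against 0.52 in the tumor. H2-K1 and B2m stood at 0.49 in the cultures and 0.52 in the tumor, and H2-D1 and B2m at 0.43 and 0.42. The surface components were thus linked in both settings. Over all cells 41 of the 45 pairs had a higher correlation in the tumor than in the cultures. The 4 exceptions were H2-K1 with H2-D1, H2-D1 with B2m, and Tapbp with each heavy chain (0.25 and 0.23 with H2-K1, 0.22 and 0.18 with H2-D1). Pairs of other genes were not counted, so the 41 pairs are not shown to be particular to class I genes. Psmb8 with Psmb10 was at 0.20 in the cultures and 0.47 in the tumor, Psmb8 with Psmb9 at 0.22 and 0.39, and Tap1 with Psmb9, which lie head to head on opposite strands around one start region, at 0.12 and 0.32. H2-D1 with Psmb8 was at 0.00 in the cultures and 0.24 in the tumor. Nlrc5 had the weakest mean correlation with the other members in both, at 0.03 and 0.13, and it has the lowest counts. The tumor classes differ in level for several of these genes, Psmb8 and Psmb10 above all, and a correlation over all cells includes that difference. Within the monocyte- or macrophage-like cells of each library, an alternative chosen after seeing the data, the tumor median was 0.20. Psmb8 with Psmb10 was then at 0.45, with libraries from 0.41 to 0.53. Psmb8 with Psmb9 was at 0.45 and Tap1 with Psmb9 at 0.32. In that order, macrophage-like cells of the cultures gave 0.20, 0.21 and 0.10. In the most numerous class of each tumor library, neutrophil-like in all but Tumor 2, the pairs were at 0.34, 0.37 and 0.31. Psmb8 with Psmb10 then ran from 0.22 to 0.53 over libraries.

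**Figure D4:**
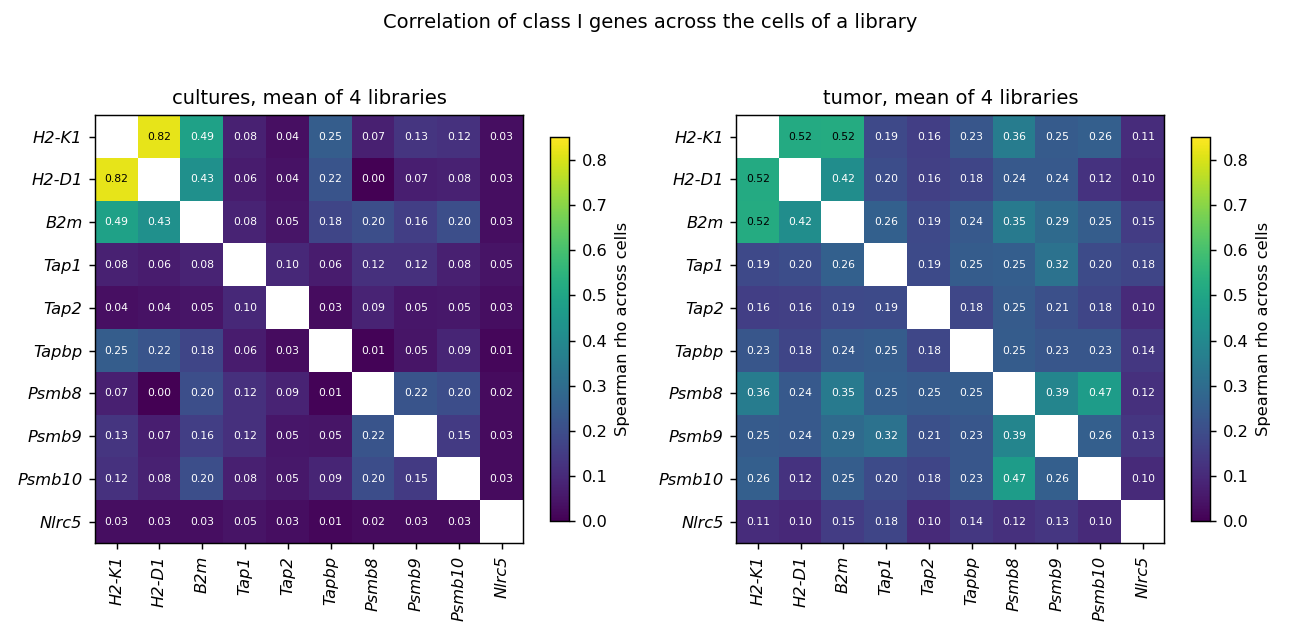
Spearman correlation of each pair of class I genes across the cells of a library, as the mean of 4 culture libraries (left) and 4 tumor libraries (right), on one color scale. In the cultures the H2-K1, H2-D1 and B2m corner is highest (0.43 to 0.82) and the other pairs reach 0.25, and in the tumor the Psmb8 pairs reach 0.47.

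The members also tracked the summed interferon list more closely in the tumor. For Tap1 the correlation was 0.21 in the cultures and 0.46 in the tumor, for B2m 0.18 and 0.42 and for Psmb9 0.22 and 0.41. H2-D1 had -0.07 in the cultures and 0.34 in the tumor. With the class II sum, H2-K1 had 0.12 and 0.39, Psmb8 0.15 and 0.36, B2m 0.15 and 0.33 and Psmb10 0.13 and 0.31. The other members had 0.03 to 0.11 in the cultures and 0.04 to 0.18 in the tumor, with Tap1 at 0.08 and 0.10 and Nlrc5 at 0.03 and 0.04. Correlations with a cell's total corrected count ran from -0.15 to 0.17 in the cultures and from -0.13 to 0.32 in the tumor, the highest being Psmb10, and their part was not tested. All of these correlations were taken over all cells of a library and not within a class. In the tumor the class II sum was 13.25 to 17.0 times higher in monocyte- or macrophage-like than in neutrophil-like cells. The part of such class differences in the tumor values was not tested.

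The lists of the 8 genes most like the summed members had 1 gene in common. In the cultures, among 8623 genes, they were Itm2b (mean rho 0.64), Ctss (0.58), Lyz2 (0.51), Cst3 (0.50), Pltp (0.47), Selenop (0.43), Hexa (0.41) and Cyba (0.40). In the tumor, among 5895 genes, they were Ctss (0.41), Psme2 (0.40), Psme1 (0.39), Bst2 (0.38), Gbp7 (0.37), H2-Q7 (0.36), Gbp2b (0.36) and H2-Q4 (0.36). The gene in both lists was Ctss, encoding the protease cathepsin S. The tumor list otherwise held the proteasome activator, guanylate-binding proteins and nonclassical heavy chains.

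The ATAC-seq lists show whether these genes are accessible before any macrophage forms. In B-cell precursors the start regions of 9 of the 10 genes carried a peak in all 12 libraries, with Tap1 and Psmb9 sharing one region, against 44.4% of the starts of 21951 protein-coding genes. Tap2 was the exception. Of 28 peak regions at the genes or within 1000 bases upstream, 16 had a peak in every library and could be tested, against 30.1% of all 101333 regions, with calls between tissues and none for CSF1R. The printed upstream sequences of H2-K1, H2-D1, B2m and Tap1 all lie in start regions with a peak in all 12 libraries.

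The Tap2 start region (mm10 chr17:34203392-34203664) had a peak in 6 of 6 spleen libraries and 0 of 6 BM libraries. An intron of Tap2 (chr17:34210432-34211155) showed the opposite, with 6 of 6 BM and 0 of 6 spleen libraries, and so did an intron of Nlrc5 (chr8:94447705-94448199). A weak region in an intron of H2-K1 (chr17:33998798-33999036) was listed in 4 spleen libraries and no BM library. The share of all regions that split by tissue in this way was not counted. Such splits are therefore not shown to be particular to class I genes. The lists hold 65832 to 76530 peaks in BM and 43407 to 50392 in spleen, and a region without a listed peak is not shown to be closed. The remaining 8 member regions outside the shared set lay within Tap2 or Nlrc5 and were listed in 1 to 9 libraries.

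Of the 16 regions tested between BM and spleen with CSF1R status as a covariate, 5 were higher in BM and 4 lower. Over all 30492 regions 22.6% were higher and 27.7% lower, so these shares are near the background. Values are log2 fold enrichment of the strongest peak centred on each library's median, as lowest, median and highest of 6 libraries. The largest difference was inside Nlrc5 (chr8:94485198-94486221), at -0.61, -0.34 and -0.19 in BM and -1.37, -1.13 and -0.74 in spleen (0.75 ± 0.083, limma adjusted p = 9.34e-06), with no overlap. The region of Tap2 at chr17:34204318-34204898 had -0.86, -0.44 and -0.33 in BM and -1.22, -1.04 and -0.73 in spleen (0.51, limma adjusted p = 0.00170), with some overlap.

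Some regions were weaker in BM. The region of Tapbp at chr17:33919334-33919934 lay at -1.26, -1.12 and -0.99 in BM and -0.87, -0.75 and -0.52 in spleen (-0.37, limma adjusted p = 0.000295), and the region downstream of the B2m start at chr2:122148548-122148874 at -2.02, -1.75 and -1.37 against -1.37, -1.32 and -1.15 (-0.42, 0.00164). In both, every BM library lay below every spleen library.

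At regions over the start of the gene in GENCODE, differences were 0.23 or less in size. For Tapbp the RefSeq start used for the promoter windows lies elsewhere, in the region from 33919334 described above (-0.37). That of H2-K1 had 0.37, 0.45 and 0.59 in BM and 0.14, 0.22 and 0.35 in spleen (0.23, limma adjusted p = 0.00718), and that of H2-D1 had -0.50, -0.38 and -0.26 against -0.55, -0.39 and -0.20 and was not called (0.01). The start of B2m (0.21, 0.0266) and an intragenic region of Nlrc5 (chr8:94492017-94492717, 0.29, 0.0207) were higher in BM, and the starts of Nlrc5 (-0.21, 0.0402) and of Tap1 and Psmb9 (-0.17, 0.0319) lower. The calls at H2-K1, at the start of B2m and at this Nlrc5 region were lost without centring (limma adjusted p = 0.0647, 0.0793 and 0.161), where all regions shifted from a median of -0.03 to -0.11 and the calls split into 5103 higher and 10600 lower, against 6897 and 8440.

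Single libraries decided the small calls between tissues. The B2m start was not called without any one of BM CSF1R+ 1 and 2, BM CSF1R- 2, spleen CSF1R+ 1, 2 and 3 and spleen CSF1R- 2 and 3 (limma adjusted p = 0.0517 to 0.0626). The Nlrc5 start was not called without BM CSF1R+ 2 or 3, any BM CSF1R- library, spleen CSF1R+ 1 or 2, or spleen CSF1R- 1 or 2 (0.0535 to 0.0833). The Tap1 and Psmb9 start was not called without BM CSF1R+ 2 or 3, BM CSF1R- 1 or 2, spleen CSF1R+ 3 or spleen CSF1R- 2 (0.0530 to 0.0728), and the Nlrc5 region from 94492017 without BM CSF1R- 2 (0.0520) or spleen CSF1R- 3 (0.0536). A second Tap2 region from 34205648, at -0.27, was called without BM CSF1R+ 3 (-0.38, 0.0119).

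**Figure D5:**
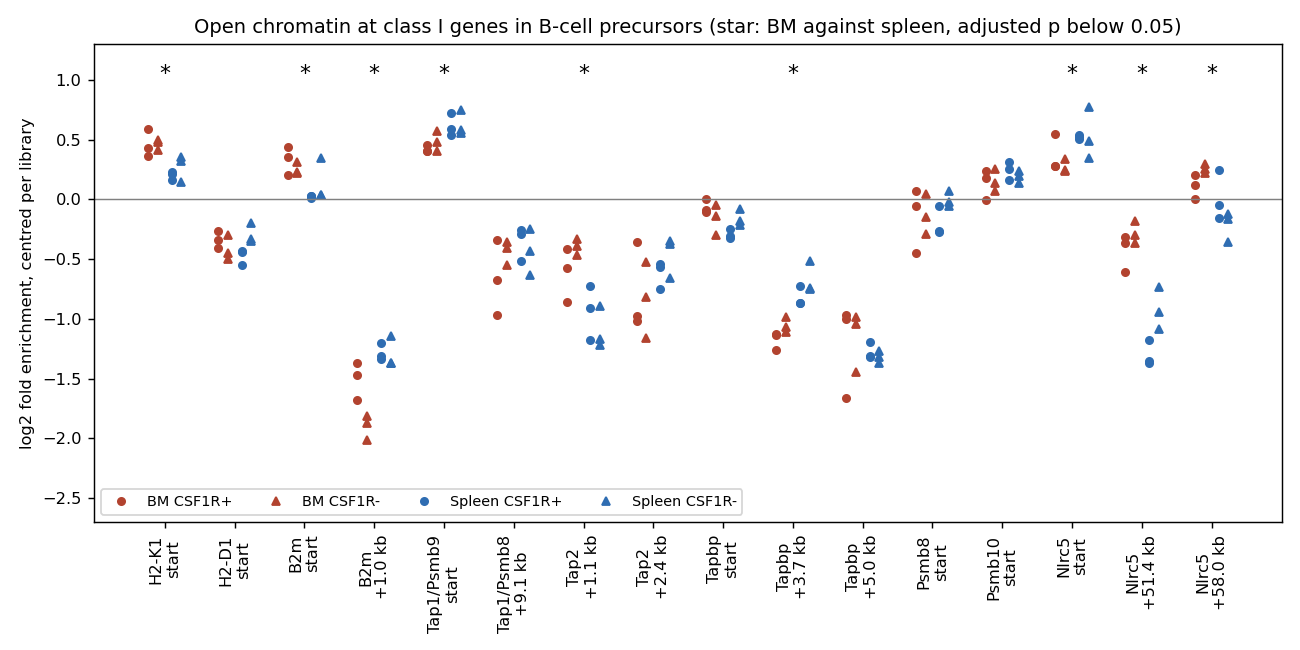
Centred log2 fold enrichment of the 16 regions with a peak in all 12 libraries, named by gene and distance of the region's centre from the gene's start, with a point per library (color for tissue, shape for CSF1R). Stars mark limma adjusted p below 0.05 between BM and spleen. The clearest separation is the middle of the Nlrc5 regions (0.75), and CSF1R+ and CSF1R- points overlap at most regions.

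CSF1R status gave no call at these genes. In BM, 19 member regions had differences (CSF1R+ minus CSF1R-) from -0.24 to 0.38, with 95% intervals reaching from -0.65 to 0.68 and a lowest limma adjusted p of 0.411. In spleen, 17 regions ran from -0.38 to 0.23, with intervals from -0.66 to 0.53 and a lowest adjusted p of 0.775. Over the genome limma called 0% of regions higher and 0% lower in both tissues, 0 of 50358 in BM (4775 at an unadjusted p under 0.05) and 0 of 35953 in spleen (2196). The study reported regions more open in BM CSF1R+ than in BM CSF1R- cells by DESeq2, and none that differed in spleen. The fit here used enrichment of the strongest peak, only where every library compared had a peak, so the measures are unlike. Among the member regions 1 in each tissue had an unadjusted p under 0.05, that downstream of the B2m start in BM (0.38) and that of Nlrc5 at chr8:94485198-94486221 in spleen (-0.38). No difference of the CSF1R effect between tissues was called by the interaction term at the 16 regions (lowest limma adjusted p = 0.497).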

How the data were processed

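The members and gene lists were chosen with earlier results of these data known. The authors counted single-cell reads with Cell Ranger, kept cells with at least 1000 detected genes, corrected the counts with SCTransform in Seurat and deposited them on a natural log scale, after adding 1. The study names a 3′ kit and the labels another Chromium kit, and the annotation release is not given in the sources used here. Values were converted back (100.0% whole, relative tolerance 0.0001), so no count model was fitted and depth before correction is unknown. Means per library were tested as log2(mean + 0.1) with limma 3.58.1 (R 4.3.3), where the mean over libraries reached 0.1, two-sided, with Benjamini-Hochberg adjustment at 0.05. Replicates differed by more than sampling noise (chi-square per gene 8.83 to 79.5).

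Cells were clustered in Python 3.11.15 with leidenalg 0.10.2 (resolution 0.5, 2000 variable genes, 30 components, 20 neighbours). Clusters were named from fixed markers with at least 3 of them and 50% raised, and the naming rule was set after clusters were seen. Doublets were not removed. Tumor libraries could not be matched to single labels and form one group.

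The authors trimmed ATAC-seq reads with cutadapt, aligned them to mm10 with BWA and called peaks in each library with MACS2 (versions not given). The deposited lists hold fold enrichment, a ratio, and −log10 of the p-value and q-value, with no counts, so depth is unknown. Peaks overlapping by 1 base were merged into 101333 regions, and log2 enrichment, centred on shared regions, was tested with limma. The pooled peak list was not used. GENCODE vM21 gave gene positions.

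Named genes were all members, the 6 pathway and 3 interferon genes with the largest called differences, the 8 most correlated genes, and, after values were seen, genes behind small counts. One gene that the rule names is not reported here. The model steps were tested on simulated data. Alternatives changed the pseudocount, filter, scaling, cells, clustering, centring, peak threshold and overlap, the replicate block, and the libraries used.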

Additional observations from a re-analysis of the deposited data

Results flagged for a closer look

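Among the 30 groups of 4 tumor libraries tested for a lone value by Dixon's ratio, 2 passed its 95% limit, where chance passes about 1 in 20. Both concern Tap1 in Tumor 3. Over all cells Tap1 stood at 0.884 corrected counts per cell in Tumor 3 against 1.33 to 1.38 in the other libraries, and in neutrophil-like cells at 0.826 against 1.33 to 1.39. In the monocyte- or macrophage-like cells it was also lowest, at 1.0 against 1.35 to 1.45, short of the limit. The interferon list summed to 24.7 in the neutrophil-like cells of Tumor 3 against 38.7 to 43.8 elsewhere, and to 24.4 against 37.3 to 40.0 in the monocyte- or macrophage-like cells. The part of either in the Tap1 value was not tested.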

How the results depend on the processing

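No call among the 10 genes changed direction. The 1955 genes higher and 1458 lower in B-MF became 1157 and 627 with a mean of at least 1, and ranged from 1112 to 3855 and from 863 to 2950 when 1 library was left out. The 9 members lower ranged from 4 to 9 without 1 library, and the 1 member higher from 0 to 1. Psmb10 was not called (0 higher) with a pseudocount of 0.01 or with clusters resembling neutrophils, lymphocytes or dendritic cells left out. Nlrc5 was also not called with pseudocounts of 0.01 and 1, with no filter and with log values averaged, and Psmb9 with a pseudocount of 0.01. Without B-MF 1 and without B-MF 2, 56.8% and 30.4% of called genes were lower, against 42.7%. The median correlation in the tumor, 0.219, was 0.197 within the most numerous class of each library (monocyte- or macrophage-like in Tumor 2, neutrophil-like in the others), 0.197 in monocyte- or macrophage-like cells only (added after seeing the data) and 0.20 after division by a cell's total. With peaks covering 50% of a region, 4118 regions were higher in BM and 4440 lower, and 2 member regions were lower, those at the starts of Nlrc5 and of Tap1 and Psmb9 being lost (adjusted p = 0.0659 and 0.0788). The Tapbp region from 33915699 was then called higher in BM (0.16, adjusted p = 0.0321). Without centring 2 member regions were higher. Leaving out 1 library gave 3 to 5 member regions higher and 2 to 4 lower. The cause of these changes was not tested.

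With the replicate number as a block, 2238 genes were higher and 1670 lower, and the calls of the 10 members stayed at 9 lower and 1 higher. Deviations of same-numbered culture libraries correlated at 0.126, a value that 2 pairs fix to be equal. In ATAC-seq the block gave 6903 regions higher and 8301 lower and called the Tap2 region from 34205648 (adjusted p = 0.0396). Same-numbered CSF1R+ and CSF1R- libraries correlated at 0.153, 0.112 and 0.0825 in BM and 0.0677, 0.0331 and 0.121 in spleen, so the numbers were not taken to pair libraries. Counts before correction and read depth were not used, which limits what can be said of scarce genes such as Nlrc5.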

Other observations

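Counts of the class I genes were also found in lymphoid classes of the tumor, where the part of free RNA was not tested. T/NK-like cells (18, 26 and 26 cells in Tumor 2, Tumor 4 and Tumor 5) had summed members of 94.5, 75.3 and 72.2 corrected counts per cell, with H2-K1 at 24.8, 15.8 and 18.2. B cell-like cells (52, 75 and 109 cells in Tumor 3, Tumor 4 and Tumor 5) had 39.7, 44.5 and 44.8, with Psmb10 at 0.385 to 0.560 and Nlrc5 at 0.0577 to 0.110, while their class II genes summed to 164 to 184. These cells were few, and they came from a sort for macrophages.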
